A study of Mus musculus with 2 samples.

Results

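Expression of 9 Sox genes (Sox1, Sox2, Sox3, Sox21, Sox4, Sox11, Sox8, Sox9 and Sox10) was followed across the cell types of the newborn mouse telencephalon. The genes were chosen by name, for their known use in neural stem cells, young neurons and glia, and all 9 were among the 27998 genes of the count matrices, which held 20 genes when every Sox gene and Sry were counted. Single-cell RNA was sequenced from 1 library per genotype, both from C57BL/6 mice at postnatal day 0. The first genotype is labelled WT by GEO, while the study's text calls the control STINGfl/fl, so it may carry the floxed alleles without Cre, and the sources used here do not settle which. The other, called cKO here, is STINGf/f;Nestin-Cre, in which Cre recombinase under the Nestin promoter of neural progenitors removes floxed STING. STING is an adaptor of the innate immune pathway for cytosolic DNA. GEO's labels name telencephalic tissue, the study's methods name the cerebral cortex, and the number of animals behind each library was not given in the sources used here. With 1 library per genotype there was no replicate and no test. A difference between the libraries therefore cannot be told apart from one between animals, their sex, dissections or captures. Intervals are 95% intervals and cover counting error only.

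Sox proteins are transcription factors that bind and bend DNA through an HMG box, the domain they share with Sry. The SoxB1 genes Sox1, Sox2 and Sox3 keep neural progenitors undifferentiated, and Sox21, a SoxB2 gene, encodes a repressor that counters them. The SoxC genes Sox4 and Sox11 act in cells that become neurons, in which they switch on pan-neuronal genes. Among the SoxE genes, Sox9 serves radial glia, astrocytes and the onset of gliogenesis, whereas Sox8 and Sox10 act in the oligodendrocyte lineage, in which Sox10 drives myelin genes.

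The start of the HMG box shows how alike the members are and where the groups part. The stretch is 54 bases of the coding strand, read 5′ to 3′ from GENCODE M21 transcripts (GRCm38). Capitals mark each base that differs from Sox2.
Sox1: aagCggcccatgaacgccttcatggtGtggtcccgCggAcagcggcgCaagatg
Sox2: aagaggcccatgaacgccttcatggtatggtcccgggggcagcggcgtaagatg
Sox3: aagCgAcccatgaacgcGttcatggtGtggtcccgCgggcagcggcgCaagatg
Sox21: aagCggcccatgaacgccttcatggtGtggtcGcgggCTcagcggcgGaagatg
Sox4: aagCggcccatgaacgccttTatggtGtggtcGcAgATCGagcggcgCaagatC
Sox11: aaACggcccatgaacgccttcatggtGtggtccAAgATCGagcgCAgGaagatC
Sox8: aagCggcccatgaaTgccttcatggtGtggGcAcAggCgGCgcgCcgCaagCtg
Sox9: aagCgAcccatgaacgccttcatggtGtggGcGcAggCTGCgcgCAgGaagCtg
Sox10: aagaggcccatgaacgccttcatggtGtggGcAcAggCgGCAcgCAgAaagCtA
The stretches lie in exon 1 of the transcript used for each gene, except for Sox10, in which it lies in exon 3. Their places are chr8:12396514-12396567 (plus strand), chr3:34650545-34650598 (plus), chrX:60892945-60892998 (minus), chr14:118235558-118235611 (minus), chr13:28952791-28952844 (minus), chr12:27342208-27342261 (minus), chr17:25570172-25570225 (minus), chr11:112782900-112782953 (plus) and chr15:79163351-79163404 (minus). Of the bases shown, Sox1 differed from Sox2 at 5, Sox3 and Sox21 at 6 each, Sox4 at 11, Sox8 at 12, Sox11 and Sox10 at 13 each and Sox9 at 14. Over the box of 237 bases, identity was 86.9% to 89.5% within SoxB, 89.5% between Sox4 and Sox11, and 81.4% to 85.2% within SoxE, against 65.0% to 73.0% between groups. The longest identical run between the transcripts of a pair was 48 bases, in Sox4 and Sox11. Sox1 and Sox2 overlap the non-coding genes Sox1ot and Sox2ot on the same strand, while Sox4, Sox8 and Sox21 overlap Gm26735, 2810468N07Rik and Gm4675 on the opposite strand. Of these, Gm26735 was counted, with 2619 UMIs for WT against 3371 for cKO, and whether counting used strand was not given in the sources used here.

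After filtering, 6428 WT and 5776 cKO cells remained, at a median depth of 6483 and 7458.5 UMIs, where a UMI stands for 1 tagged RNA molecule. Tmem173, which encodes STING, was counted 110 times in WT cells and 15 times in cKO cells. Sex-linked RNA also differed, with 10 Xist UMIs in WT against 67618 in cKO and 9296 against 6 UMIs of 4 Y-linked genes. Sex and genotype therefore cannot be told apart in any comparison of the libraries. Of all barcode sequences, 19 occurred in both libraries, 8 of them among the kept cells. Cells were assigned to 13 groups by marker genes, none of them a Sox gene, and 12.8% of WT and 17.2% of cKO cells met no gate. The groups held 161 WT and 200 cKO radial glia without astrocyte markers, 450 and 248 astrocytes, 364 and 177 oligodendrocyte precursors (OPCs), 161 and 115 cycling cells without Dlx genes, 175 and 82 cycling cells with Dlx genes, 154 and 145 intermediate progenitors, 2472 and 2498 glutamatergic neurons and 1382 and 1133 GABAergic neurons. Ependymal, Cajal-Retzius, endothelial, mural and microglial cells made up the small groups, with 23 to 90 cells in each library. Radial glia and astrocytes together are called glia, and in each pair of values the WT value comes first. Levels are UMIs of a gene per 1000000 UMIs of the group (CPM), a sum in which fewer expressing cells and less RNA per cell cannot be told apart.

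**Figure D1:**
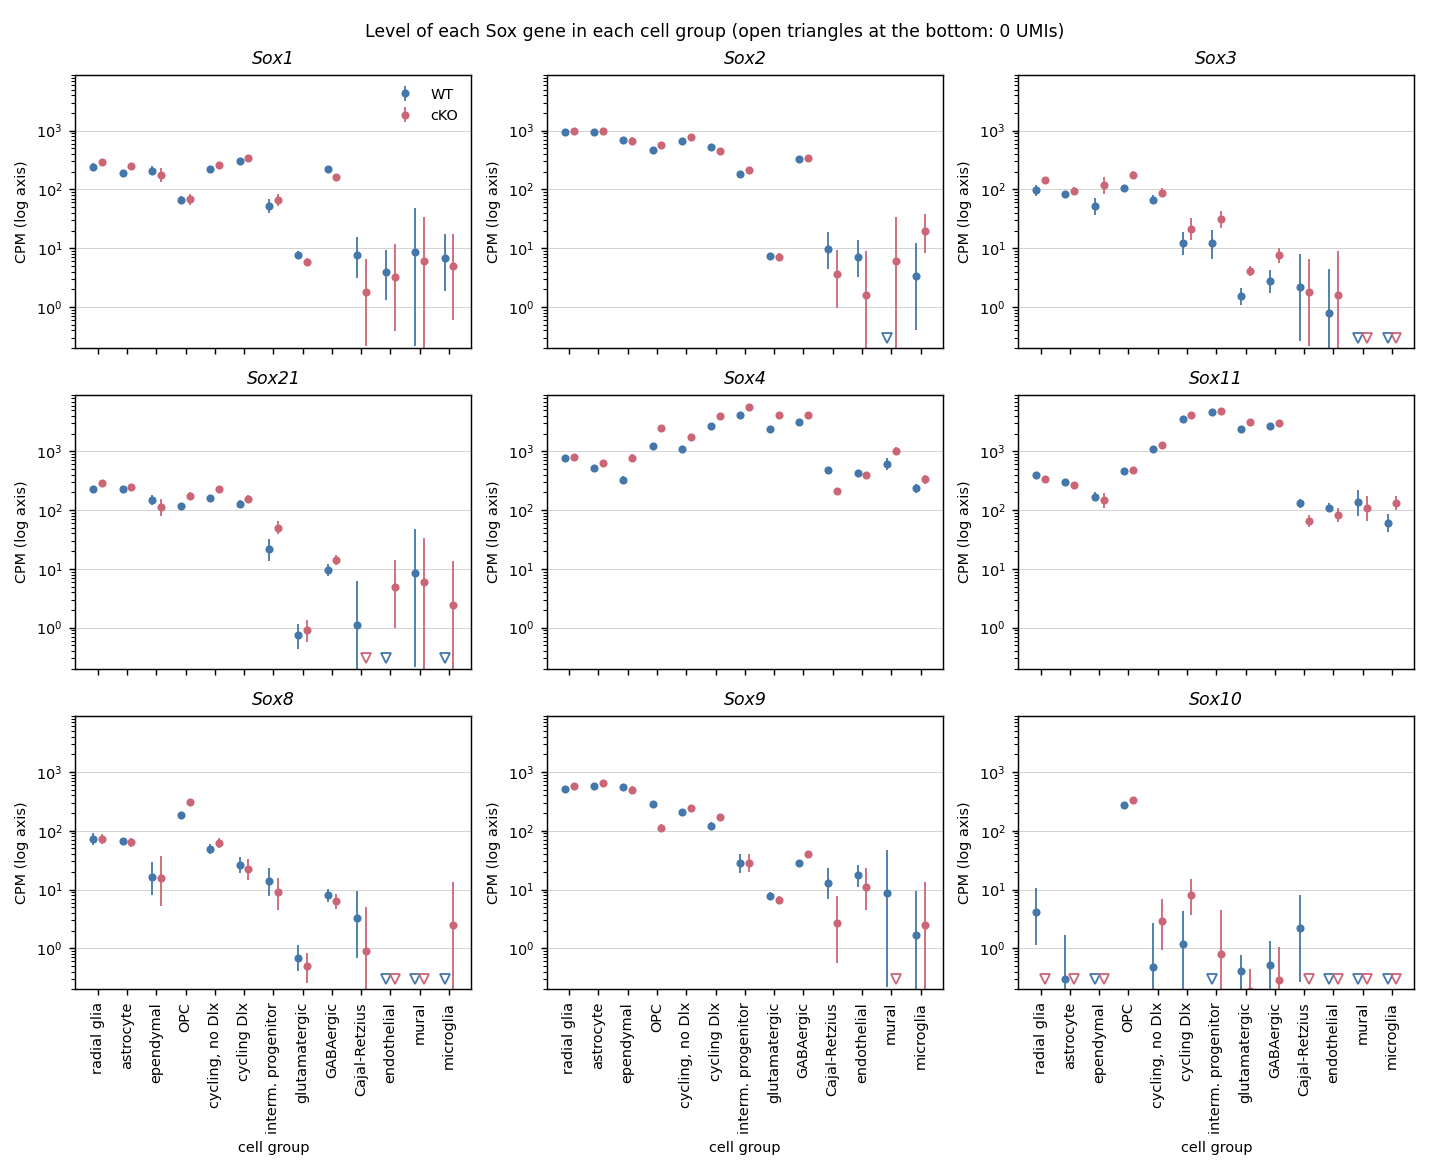
Level of each Sox gene (panels) in the 13 cell groups of the WT (blue) and cKO (red) libraries, in CPM on a log axis; bars are exact Poisson 95% intervals and open triangles mark groups with 0 UMIs. Sox2 and Sox9 were highest in astrocytes, Sox4 and Sox11 in intermediate progenitors and Sox3, Sox8 and Sox10 in OPCs, in both libraries. Some of these groups did not differ from the next one beyond counting error. They were astrocytes and radial glia for Sox2 in both libraries and, in WT, astrocytes and ependymal cells for Sox9 and OPCs and radial glia for Sox3.

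The SoxB genes were high in glia and dividing cells and close to absent from glutamatergic neurons. Sox2 stood at 941 CPM in WT and 996 CPM in cKO in radial glia and at 958 and 999 CPM in astrocytes, which did not differ beyond counting error in either library. Cycling cells without Dlx genes had 676 and 767 CPM, cycling Dlx cells 518 and 444 CPM, OPCs 468 and 565 CPM and intermediate progenitors 181 and 214 CPM. Glutamatergic neurons had 7.27 and 7.07 CPM and lay under intermediate progenitors by 4.64 (4.34 to 4.94) on the log2 scale in WT and 4.92 (4.65 to 5.20) in cKO. GABAergic neurons instead had 333 and 344 CPM, above glutamatergic neurons by 5.52 (5.30 to 5.74) and 5.60 (5.39 to 5.83). Microglia had 3.41 CPM (0.413 to 12.3) of Sox2 in WT and 19.6 CPM (8.46 to 38.6) in cKO. The cKO microglial level rested on 8 UMIs in 4 of 28 cells. The glutamatergic level lay below it in cKO and within the microglial interval in WT. It is read as background in both libraries, so the differences from it are differences from background.

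Sox1 shared this split between the neurons but had another order among dividing cells. Its highest level, 308 CPM in WT and 343 CPM in cKO, was in cycling Dlx cells, the dividing cells of the GABAergic lineage, and exceeded that of the next group, radial glia, beyond counting error in both libraries. Radial glia had 245 and 292 CPM and astrocytes 191 and 250.0 CPM. Sox1 was at 219 and 160.2 CPM in GABAergic neurons, which held 37.0% and 30.2% of all its UMIs, against 7.80 and 5.82 CPM in glutamatergic neurons, a level within counting error of that in microglia, 6.81 and 4.90 CPM. OPCs were below glia, with 66.9 and 68.1 CPM and log2 differences of -1.60 (-1.86 to -1.35) and -1.97 (-2.31 to -1.65).

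In GABAergic neurons Sox3 and Sox21 were lower than Sox1 and Sox2 relative to their own levels in glia. Sox3 was at 12.4 and 21.6 CPM in cycling Dlx cells and 2.77 and 7.59 CPM in GABAergic neurons, compared with 67.4 and 88.5 CPM in cycling cells without Dlx genes. Sox21 was at 128 and 157 CPM in cycling Dlx cells and 9.49 and 14.3 CPM in GABAergic neurons, a log2 difference of 3.76 (3.37 to 4.16) in WT and 3.45 (3.09 to 3.82) in cKO, where that of Sox2 was 0.64 (0.53 to 0.75) and 0.37 (0.22 to 0.51). In glia Sox21 had 229 and 267 CPM. Sox3 was also the SoxB gene with more in OPCs, at 106 and 179 CPM, than in glia, at 87.1 and 114 CPM. OPCs and radial glia, its next group, differed beyond counting error in cKO and not in WT. The OPC level was above the glial one by 0.28 (0.043 to 0.52) and 0.64 (0.40 to 0.88), whereas for Sox2 the difference was -1.03 (-1.13 to -0.93) and -0.82 (-0.94 to -0.70).

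The SoxC genes were highest in new neurons and their direct precursors. Sox4 peaked in intermediate progenitors, which produce glutamatergic neurons, at 4105 CPM in WT and 5570.4 CPM in cKO. GABAergic neurons had 3152 and 4204 CPM, cycling Dlx cells 2706 and 3963 CPM, glutamatergic neurons 2414 and 4107 CPM and glia 578 and 706 CPM. Sox11 peaked in the same group, at 4639.8 and 4934 CPM, followed by cycling Dlx cells at 3543 and 4206 CPM, and had 319.9 and 297 CPM in glia. From cycling cells without Dlx genes to intermediate progenitors the log2 difference of Sox4 was 1.91 (1.84 to 1.99) in WT and 1.69 (1.63 to 1.75) in cKO, and that of Sox11 was 2.10 (2.03 to 2.18) and 1.95 (1.88 to 2.02). Intermediate progenitors then exceeded glutamatergic neurons by 0.77 (0.72 to 0.81) and 0.44 (0.40 to 0.47) for Sox4.

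Outside the neuronal path both SoxC genes had lower levels. In OPCs Sox4 was above its glial level by 1.11 (1.03 to 1.19) in WT and 1.79 (1.72 to 1.87) in cKO, and Sox11 by 0.50 (0.39 to 0.62) and 0.68 (0.53 to 0.82). Cajal-Retzius cells, the early Reln-expressing neurons of the marginal zone, had 476 and 209.7 CPM of Sox4 and 129 and 65.4 CPM of Sox11, far less than the other neurons. The cKO level of Sox11 there was below that of cKO microglia, 132 CPM, and is read as background. Their marker list summed to 5781 and 5254 CPM, with none of its 7 genes at 0.

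The SoxE genes separated the glial groups. Sox9 stood at 584 CPM in WT and 649 CPM in cKO in astrocytes, 509 and 573 CPM in radial glia and 555 and 489.8 CPM in ependymal cells, which line the ventricles. Astrocytes exceeded radial glia in both libraries, with intervals that did not overlap, while ependymal cells and radial glia did not differ beyond counting error in either. Astrocytes and ependymal cells did not differ beyond counting error in WT. Cycling cells without Dlx genes had 212 and 242 CPM, with log2 differences from radial glia of -1.27 (-1.46 to -1.08) and -1.25 (-1.42 to -1.08). Sox8 was highest in OPCs, at 188 and 304 CPM, with 67.3 and 66.9 CPM in glia. Sox10 was nearly limited to OPCs, which had 274 and 337 CPM and held 632 of 676 Sox10 UMIs in WT and 421 of 458 in cKO. Its UMIs in glia numbered 5 in WT against 0 in cKO, where a count of 0 allows, at a limit of 3 UMIs, up to 0.790 CPM.

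To set detection side by side across depths, each cell was thinned to 1000 UMIs, and microglia served as the group that should lack these genes; 1 microglial cell per library was too shallow and was left out. Sox2 was seen in 55.0% (51.0 to 59.0) of WT and 62.4% (57.7 to 66.9) of cKO glia and in 0.569% and 0.801% of glutamatergic neurons. In microglia, at median depths of 9726 and 12021.5 UMIs, 0 of 56 WT and 0 of 27 cKO cells had a Sox2 UMI, which allows shares of up to 5.36% and 11.1% at a limit of 3 cells, and without thinning the shares were 3.51% and 14.3%. These limits are set by the small number of microglia, so they alone do not show whether the glutamatergic share of Sox2 lay above background. For the abundant Sox4 the background was higher, at 17.9% (8.91 to 30.4) of WT and 33.3% (16.5 to 54.0) of cKO microglia, against 88.7% and 95.8% of glutamatergic neurons, 95.4% and 98.6% of intermediate progenitors and 61.2% and 75.1% of OPCs. In Cajal-Retzius cells the Sox4 shares were 37.3% and 15.3%, of which the cKO share was under the microglial one and is read as background. Sox10 was seen in 25.5% (21.1 to 30.3) of WT and 31.6% (24.9 to 39.0) of cKO OPCs, and without thinning in 70.6% and 79.1%.

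**Figure D2:**
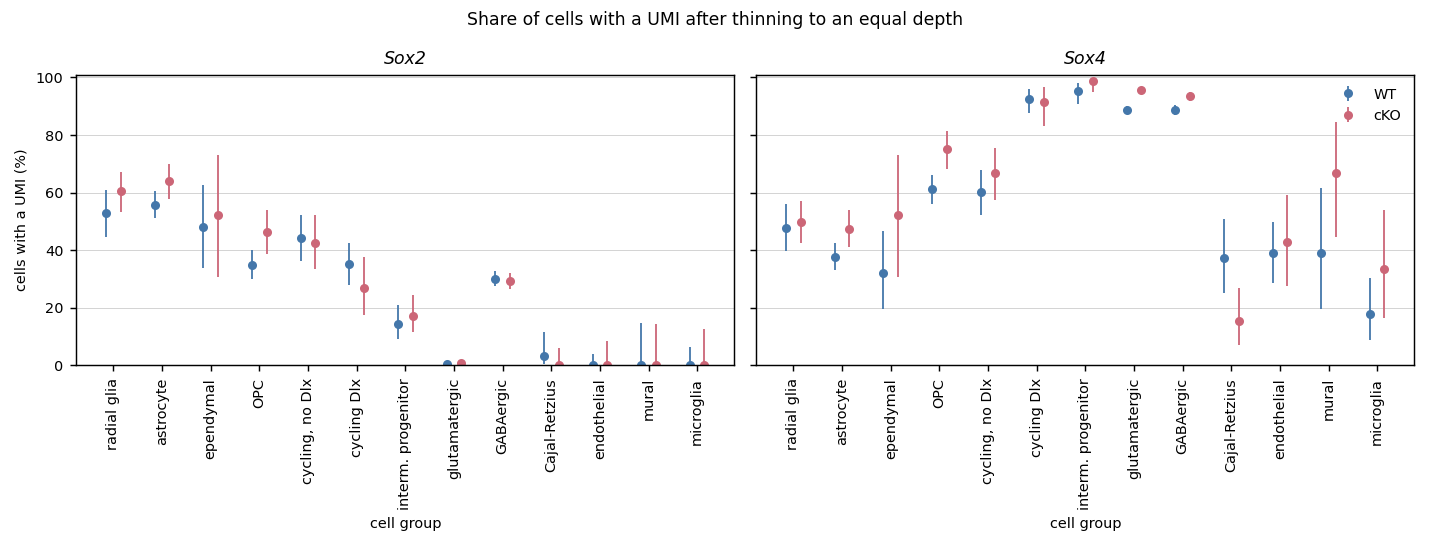
Percent of cells with at least 1 UMI of Sox2 (left) and Sox4 (right) in each cell group after thinning to 1000 UMIs per cell, in WT (blue) and cKO (red); bars are exact Clopper-Pearson 95% intervals. Sox2 was at 0% in microglia of both libraries, whereas Sox4 was seen in 17.9% and 33.3% of them.

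Over the 13 groups, the levels of a gene in the 2 libraries correlated with Pearson's r from 0.878 for Sox10 to 0.987 for Sox1 on the log2(CPM + 1) scale and Spearman's rho from 0.436 for Sox10, which was near 0 outside OPCs, to 0.972 for Sox3, a description over groups of unequal depth that share a library. The genes most like each member over all 26 profiles were in part members. Sox1 and Sox2 were each other's nearest gene (r = 0.944), and Sox11 was the nearest to Sox4 (r = 0.936). Sox2 was next nearest to Nr2e1 (0.936), a nuclear receptor of neural stem cells, and to Sox6 (0.933). Sox3 was nearest to Bcan (0.971), which encodes a matrix proteoglycan, and to the glial potassium channel gene Kcnj10 (0.963), and then to Hepacam. Sox1 also resembled Meis1 (0.926) and Fzd2 (0.916), and Sox4 Mex3b (0.923) and Rcor2 (0.920). Sox21 was nearest to Gas1 (0.949), then Nr2e1 and Repin1, and Sox11 to Scrt2 (0.946), then Sox4 and Rnf165. Sox8 was nearest to Usp51 (0.937), then Bcan and Sox3, and Sox9 to Fam69c (0.939), then Rgs20 and Nr2e1. Sox10 was nearest to Matn4 (0.905), followed by Gal3st1 (0.892) and Ugt8a (0.876), which encode enzymes of myelin lipid synthesis.

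The libraries were then compared within each cell group. A centred ratio is the log2 ratio of cKO over WT minus the median of all genes with at least 20 UMIs, and that median was -0.093 in glia, -0.038 in OPCs, -0.020 in cycling cells without Dlx genes, -0.041 in intermediate progenitors, -0.19 in glutamatergic neurons, -0.095 in GABAergic neurons and -0.27 over all kept cells. A gene was called where its ratio before centring was at least 1 in either direction. In glia 0 of 8 members measured were called, where 15.7% of all genes were. The members called were 1 of 9 in OPCs against 17.4% of all genes, 0 of 8 in cycling cells without Dlx genes against 14.4%, 0 of 8 in cycling Dlx cells against 17.1% and 2 of 8 in intermediate progenitors against 19.3%. They were 1 of 8 in glutamatergic neurons against 24.0%, 1 of 8 in GABAergic neurons against 20.8% and 0 of 9 over all kept cells against 24.5%. These shares were near or under those of all genes. For the small groups no share of all genes is given here. Among them, Sox3 (1.18) and Sox4 (1.24) were also called in ependymal cells, Sox4 (-1.18) in Cajal-Retzius cells and Sox11 (1.11) in microglia. The centred interval lay above 0 for 6 members and below it for 0 in glia, for 6 and 1 in OPCs, for 3 and 0 in glutamatergic neurons and for 6 and 1 in GABAergic neurons. Of all genes measured, 26.8% lay above and 24.8% below by the same rule in glia, 21% and 21.3% in OPCs, 38.0% and 36.4% in glutamatergic neurons and 32.7% and 31.4% in GABAergic neurons. Abundant genes have narrow intervals and pass this rule at smaller ratios, so these counts depend on depth.

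**Figure D3:**
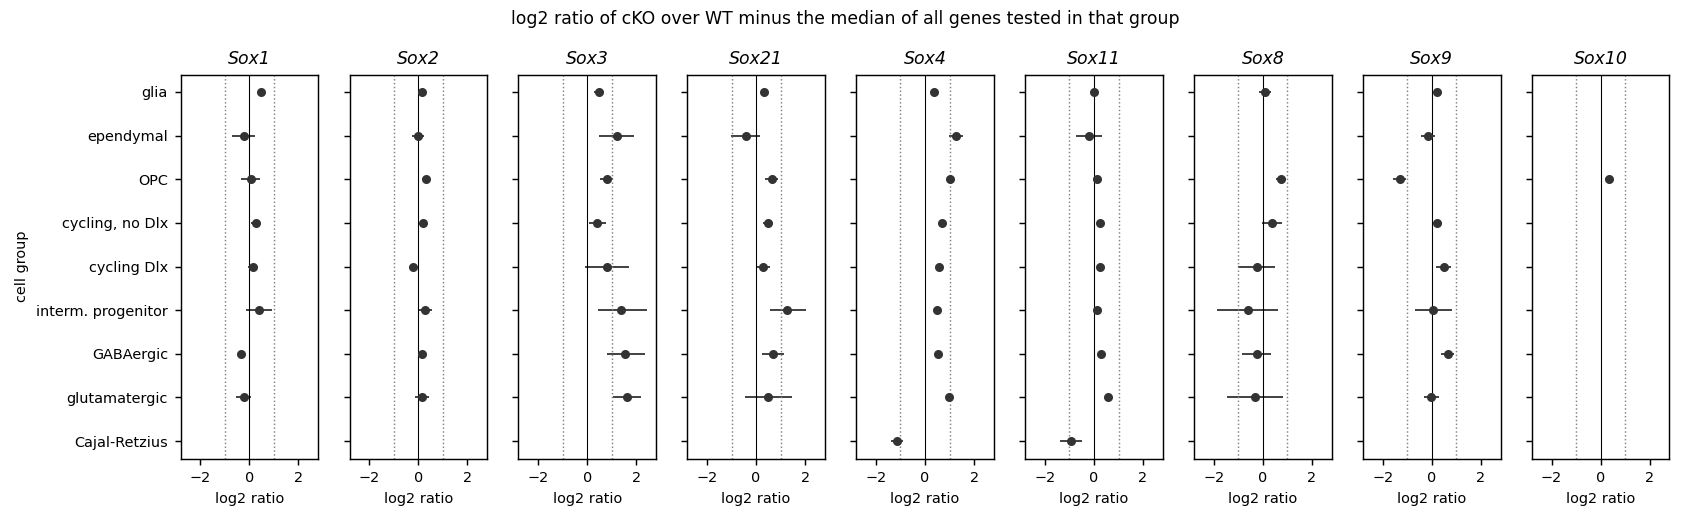
Centred log2 ratio of cKO over WT of each Sox gene (panels) in 9 cell groups (rows), with exact 95% counting intervals; groups in which a gene had fewer than 20 UMIs are left blank, and dotted lines mark 1 in either direction. Sox4 lay right of 0 in 8 rows and left of it in Cajal-Retzius cells, and Sox9 was at -1.31 in OPCs.

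Glia pool radial glia and astrocytes, whose proportions differed, with radial glia forming 161 of 611 WT and 200 of 448 cKO glia. The 7 astrocyte markers summed to 1429 and 953 CPM in astrocytes, with none at 0, and to 347 and 251 CPM in radial glia, with 1 and 0 at 0. The OPC markers summed to 803 and 255 CPM in radial glia and 531 and 212 CPM in astrocytes. Those of intermediate progenitors summed to 125 and 54.5 CPM and to 213 and 53.2 CPM. Some lists were instead higher in cKO, such as the ependymal one in radial glia, at 25.3 and 47.4 CPM. Within the parts, the centred ratio of Sox1 was 0.31 (0.079 to 0.54) in radial glia and 0.46 (0.29 to 0.63) in astrocytes, both below the pooled value given further on. Sox3 was at 0.63 (0.27 to 1.00) in radial glia and 0.23 (-0.031 to 0.50) in astrocytes, where the interval held 0. For Sox21 the values were 0.43 (0.19 to 0.67) and 0.19 (0.033 to 0.35), and for Sox4 0.13 (-0.0016 to 0.26), an interval that held 0, and 0.36 (0.25 to 0.46). Sox2 and Sox9 differed little between the parts, at 0.14 and 0.14 for Sox2 and 0.23 and 0.23 for Sox9. The part of the proportions and of these markers in the pooled ratios was not tested.

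Sox9 was the member called in OPCs. It was counted 655 times in WT, or 284 CPM (263 to 307), and 139 times in cKO, or 111 CPM (93.6 to 131). The centred ratio was -1.31 (-1.59 to -1.05), or -0.83 under a looser gate, a size under 1, and thinned shares of OPCs with a Sox9 UMI were 22.2% and 10.2%. In glia the centred ratio of Sox9 was 0.22 (0.13 to 0.30), or 0.13 with totals without mitochondrial, ribosomal protein and haemoglobin genes. In GABAergic neurons, with a low level of 27.9 and 40.8 CPM, it was 0.64 (0.38 to 0.90). The other SoxE genes were higher in cKO OPCs, Sox8 with a centred ratio of 0.73 (0.53 to 0.93) and Sox10 with one of 0.34 (0.15 to 0.52), or 0.63 with the stricter filter on cells. OPCs with UMIs of both Sox9 and Sox10 made up 44.8% (39.6 to 50.1) of WT and 27.1% (20.7 to 34.3) of cKO cells without thinning. Those with Sox10 alone made up 25.8% (21.4 to 30.6) and 52.0% (44.4 to 59.5). Such shares depend on those of each gene, 62.9% and 37.3% for Sox9 and 70.6% and 79.1% for Sox10. After thinning, 27 of 361 WT and 8 of 177 cKO OPCs had both, where the product of the shares gave 20.4 and 5.69 cells.

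Marker genes of radial glia differed between the libraries together with Sox9, and their part in the Sox9 difference was not tested beyond the split given here. In OPCs the 8 markers of radial glia and astroglia summed to 6811 and 2936 CPM, with none at 0, of which Fabp7 gave 5106 and 1724 CPM. The 7 astrocyte markers summed to 72.5 and 18.4 CPM, with 1 and 4 of them at 0 (Aqp4, Gjb6, Agt and Slc39a12 in cKO), and the 8 OPC markers to 5777 and 3924 CPM. The radial glial list passed its gate in 42.3% of WT and 7.34% of cKO OPCs, and the cycling list in 14.6% and 6.21%. OPCs were split by these genes, a step chosen after the data had been seen. In the 152 WT and 130 cKO OPCs that had a Pdgfra UMI and passed neither gate, Sox9 was at 241 and 116 CPM, with a ratio before centring of -1.05 (-1.42 to -0.69). There Sox10 was at 321 and 409.7 CPM, with a ratio of 0.35 (0.11 to 0.59), and Sox8 at 249 and 308 CPM, with one of 0.31 (0.033 to 0.58).

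**Figure D4:**
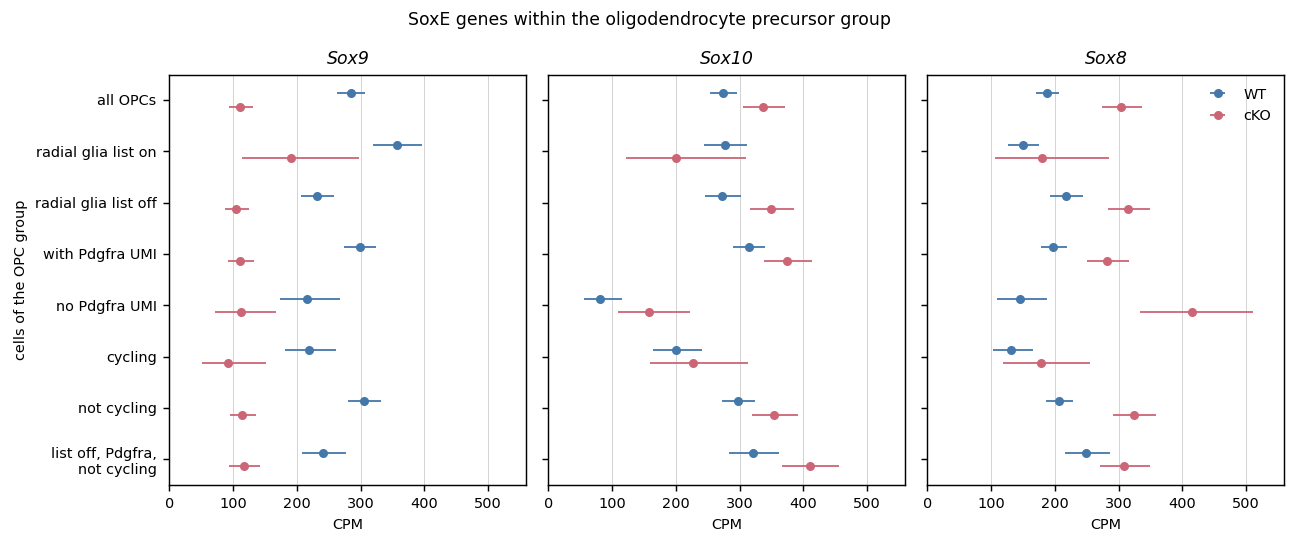
Level in CPM of Sox9, Sox10 and Sox8 in all OPCs and in parts of the group set by other genes (rows), in WT (blue) and cKO (red), with exact Poisson 95% intervals. Sox9 was lower in cKO in all 8 rows, and Sox10 was lower in 1, the OPCs that passed the radial glial gate, where the intervals overlapped.

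Sox4 was higher in the cKO library in most groups. In glutamatergic neurons 58778 and 108616 UMIs were counted in WT and cKO, or 2414 and 4107 CPM, a centred ratio of 0.96 (0.94 to 0.97). In OPCs it was 1.01 (0.93 to 1.08), with 1249 and 2447 CPM, and in the part of the OPCs described above the ratio before centring was 0.56 (0.46 to 0.66). Centred ratios were 0.68 in cycling cells without Dlx genes, 0.55 in cycling Dlx cells, 0.51 in GABAergic neurons, 0.48 in intermediate progenitors and 0.38 in glia. In cycling cells without Dlx genes the 8 radial glial markers also differed, with 10915 and 6372 CPM and none at 0, as did the 7 astrocyte markers, with 437 and 195 CPM and 1 and 0 at 0, and the 8 OPC markers, with 823 and 388 CPM and 1 and 1 at 0. Their part in the Sox4 and Sox2 ratios of that group was not tested. Microglia, in which Sox4 can come from free RNA, had 0.56 (0.20 to 0.91). In Cajal-Retzius cells the centred ratio was -1.13 (-1.37 to -0.90), with a cKO level read as background. The 8 glutamatergic markers summed to 2402 and 1874 CPM in glutamatergic neurons, with none at 0, and their part in the Sox4 difference was not tested.

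Sox11 differed less than Sox4 in the neuronal groups, glia and OPCs. Its centred ratio was 0.59 (0.58 to 0.61) in glutamatergic neurons (0.98 with the stricter filter on cells, of at least 1000 genes and at most 5% mitochondrial UMIs), 0.28 (0.25 to 0.31) in GABAergic neurons and 0.13 (0.076 to 0.18) in intermediate progenitors. The interval held 0 in glia, at -0.013 (-0.13 to 0.10), and in OPCs, at 0.10 (-0.044 to 0.25), unlike that of Sox4. In microglia, with 36 and 54 UMIs, Sox11 had 1.14 (0.51 to 1.79), more than in any of these groups and more than Sox4 there. Of the 5 listed SoxC targets, 3 had intervals above the median gene in glutamatergic neurons and 2 below it, where 38.0% and 36.4% of all genes were. Mex3a, which encodes an RNA-binding protein, had 194 and 362 CPM (centred 1.10), Dcx, of migrating neurons, 504 and 589 CPM (0.42), and Tubb3, a neuronal tubulin, 4029.6 and 4089.6 CPM (0.21). Stmn2, which encodes a regulator of microtubules, had 3154 and 2539 CPM (-0.12) and Tead2 3.29 and 1.78 CPM (-0.69). In GABAergic neurons 1 of the 5 was above the median gene and 3 were below it, with a median of -0.44, against 32.7% and 31.4% of all genes.

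Sox3 was called in 3 of the groups with a background share, all with low counts. It had 13 and 38 UMIs in intermediate progenitors, a ratio before centring of 1.35 (0.41 to 2.38), 37 and 108 in glutamatergic neurons, 1.43 (0.88 to 2.01), and 21 and 53 in GABAergic neurons, 1.45 (0.70 to 2.26). In these neurons its thinned shares were 0.122% and 0.321% and 0.219% and 0.802%, and no thinned microglial cell had a Sox3 UMI, a count of 0 that, among so few microglia, does not measure the background of these shares. In glia and OPCs, where Sox3 was well expressed, the centred ratio was 0.49 (0.28 to 0.69) and 0.79 (0.52 to 1.06). Ependymal cells, a small group for which no background share is given here, had 52.1 and 118 CPM of Sox3. That came from 35 and 37 UMIs, with a ratio before centring of 1.18 (0.48 to 1.89), also past 1. Sox3 is X-linked, and with the Xist and Y-linked counts above, sex and genotype cannot be told apart. X-linked genes had a median ratio before centring of -0.14 over 368 genes in OPCs and -0.11 over 395 in glia, against -0.032 and -0.092 for autosomal genes.

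Among the other SoxB genes, Sox2 had centred ratios of 0.16 (0.093 to 0.22) in glia and 0.31 (0.17 to 0.45) in OPCs. It had 0.20 (0.091 to 0.31) in cycling cells without Dlx genes and -0.22 (-0.39 to -0.063) in cycling Dlx cells. The glial Sox2 ratio before centring was 0.064, and 0.075 with totals without mitochondrial, ribosomal protein and haemoglobin genes. Sox21 was called in intermediate progenitors, with 23 and 62 UMIs and a ratio before centring of 1.23 (0.52 to 1.99), and its centred ratio was 0.31 (0.18 to 0.44) in glia, or 0.17 under a looser gate, and 0.63 (0.37 to 0.89) in OPCs. Sox1 had a centred ratio of 0.49 (0.36 to 0.62) in glia and -0.36 (-0.47 to -0.25) in GABAergic neurons. With the stricter filter on cells the GABAergic value was -0.020, so it depended on the cells kept. Of 6 listed partners and targets of SoxB1, 4 were above the median gene in glia and 1 below, against 26.8% and 24.8% of all genes. The receptor gene Notch1, which keeps progenitors undifferentiated, had 229 and 385 CPM (0.84), Prom1, a surface marker of stem cells, 57.2 and 84.6 CPM (0.66), and the growth factor receptor gene Egfr 67.1 and 42.4 CPM (-0.57).

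Of the 11 remaining genes, 5 were measured in glia and 3 in OPCs. Sox6, a SoxD gene that holds back the maturation of OPCs, was lower in the cKO library in both, at 93.9 and 35.0 CPM in glia (centred -1.33, interval -1.62 to -1.04) and 311 and 120.1 CPM in OPCs (-1.33, interval -1.60 to -1.08). Sox5, of the same group, had 124 and 95.3 CPM in OPCs (-0.34, interval -0.66 to -0.025) and 87.8 and 69.8 CPM in glia (-0.24, interval -0.47 to -0.0066). Sox12, the third SoxC gene, had centred ratios of 0.38 (0.12 to 0.63) in glia and 0.54 (0.19 to 0.89) in OPCs. The SoxF genes, which act in blood vessels, were measured in endothelial cells, Sox17 at 202 and 314 CPM (0.72, interval 0.45 to 1.00), Sox18 at 231 and 154 CPM (-0.49, interval -0.84 to -0.15) and Sox7 at 64.7 and 86.9 CPM (0.51, interval -0.011 to 1.03). In glia Sox7 had 27 and 8 UMIs (-1.50, interval -2.85 to -0.32), a low count. Sox13, a SoxD gene, had 31 and 29 UMIs in glia (0.16, interval -0.62 to 0.94) and 40 and 6 in endothelial cells (-1.64, interval -3.17 to -0.39). Among the listed SoxE targets, the myelin gene Mbp was at 98.5 and 58.5 CPM in OPCs (centred -0.72, interval -1.12 to -0.33), and Nfia, which acts with Sox9 in gliogenesis, was at 378 and 278 CPM (-0.41, interval -0.59 to -0.22), both below the median gene. Mmd2 had 115 and 106 CPM (-0.078, interval -0.39 to 0.23), with an interval that held the median gene.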

How the data were processed

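Raw UMI counts per gene and barcode, in 1 matrix per library, are what the authors deposited (10x Chromium; how cells were called is not given in the sources used here). The submitters' processing notes name STAR, Cell Ranger 2, Seurat and mm9, and the matrix header software version 3.0.1. Coordinates are GRCm38, from GENCODE M21 by Ensembl ID. A combined matrix, dense copies and a table of the authors' own cluster comparisons (fold changes, p-values) were not used. Members, lists and gates were chosen with earlier results of these data known.

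Barcodes with at least 500 genes and at most 10% mitochondrial UMIs were kept. Scrublet's automatic threshold called 165 WT and 0 cKO doublets, so the 5% with the highest score were removed from each library. A cell joined a group when a minimum number of markers and of marker UMIs per 10000 was met and conflicting lists were not. UMIs were summed per group. Levels have exact Poisson, ratios conditional binomial and shares Clopper-Pearson intervals, and 0.5 was added to each count for the median over genes. Named genes were the members, the 3 genes of highest Pearson r with each among those with at least 200 UMIs, outside the markers, and 4 fixed lists. A listed gene is not reported here. Markers and Tmem173, Xist, Y-linked genes and Gm26735 serve as checks. The calculations of ratios and likeness were run on simulated counts with planted answers. That checks the arithmetic only and not the spread between libraries. Python 3.11.15, scanpy 1.11.5, scipy 1.17.1 and, for TMM factors, edgeR 4.0.16 were used.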

Additional observations from a re-analysis of the deposited data

Results flagged for a closer look

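Several Sox genes had a counting interval wholly above the median gene in a cell group and wholly below it in another. The share of all genes that did so is not given here, so this is not read as a trait of the Sox genes. In glutamatergic neurons alone, 38.0% of all genes lay above the median gene and 36.4% below it. With 1 library per genotype the differences between groups were not tested. Values are centred log2 ratios of cKO over WT.

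Sox9 was at 0.64 in GABAergic neurons and -1.31 in OPCs. Sox1 was at 0.49 in glia and -0.36 in GABAergic neurons, where it was -0.020 with the stricter filter on cells and -0.17 with a stricter gate. Sox2 was at 0.31 in OPCs and -0.22 in cycling Dlx cells. Sox4 was at 1.26 in ependymal cells, of which 51 WT and 23 cKO cells were kept, and at -1.13 in Cajal-Retzius cells, where the cKO level is read as background. Sox11 was at 0.59 in glutamatergic neurons and -0.93 in Cajal-Retzius cells, of which 59 WT and 59 cKO cells were kept and where the cKO level is likewise read as background.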

How the results depend on the processing

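No paired analysis was possible because each genotype had 1 library, and nothing here measures the spread between animals. For 13 ratios, the log2 ratio was recomputed under 10 other choices of filter, gate, scaling and median. The 13 were each member in its fixed group, Sox9, Sox4 and Sox3 in OPCs and Sox1 in GABAergic neurons. The recomputed ratio was centred, except with TMM factors, median-of-ratios size factors and totals without mitochondrial, ribosomal protein and haemoglobin genes. Of 130 values, 107 stayed within the counting interval of the centred ratio, 23 left it and 0 changed sign. Keeping called doublets, TMM factors and a median over every gene moved none of the 13 out of it. The cause of the moves was not tested. Without a filter on cells the value was 0.98 for Sox4 in glutamatergic neurons. With at least 1000 genes and at most 5% mitochondrial UMIs it was 1.36 for Sox4 and 0.98 for Sox11 in glutamatergic neurons, 0.50 for Sox8 and 0.63 for Sox10 in OPCs and -0.020 for Sox1 in GABAergic neurons. A stricter gate gave 1.14 for Sox4 and 0.82 for Sox11 in glutamatergic neurons, 0.70 for Sox4 in OPCs and -0.17 for Sox1 in GABAergic neurons. A looser gate gave 0.17 for Sox21 in glia, 0.92 for Sox4 and 0.56 for Sox11 in glutamatergic neurons and -0.83 for Sox9 and 1.25 for Sox4 in OPCs. Median-of-ratios size factors gave 0.94 for Sox4 and 0.57 for Sox11 in glutamatergic neurons. Totals without mitochondrial, ribosomal protein and haemoglobin genes, not centred, gave 0.075 for Sox2 and 0.13 for Sox9 in glia. In glutamatergic neurons they gave 0.79 for Sox4 and 0.42 for Sox11. With totals of all genes, the ratios before centring were 0.064, 0.12, 0.77 and 0.40 in the same order. With cells weighed equally the value was 0.66 for Sox11 in glutamatergic neurons and 1.18 for Sox4 in OPCs. Chosen after seeing the data, doublets by the automatic threshold gave 0.94 for Sox4 and 0.57 for Sox11 in glutamatergic neurons. Of the OPC parts, also chosen then, cells under the radial glial gate gave 0.81 for Sox4 in OPCs. Cells with a Pdgfra UMI gave 0.84 for Sox4 in OPCs. Cells that met both and were not cycling gave 0.60 for Sox4, 0.34 for Sox8 and -1.01 for Sox9 in OPCs. Shares of cells with a UMI, each recomputed at 2000 UMIs per cell and without thinning, gave 56 values, which all left the interval at 1000 UMIs. Such shares rise when more UMIs per cell are kept, so this outcome was largely fixed in advance.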
